A study of Mus musculus with 8 samples.

Results

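The genes described here are 6 matrix metalloproteinases (Mmp2, Mmp3, Mmp9, Mmp12, Mmp13 and Mmp14), 3 tissue inhibitors of metalloproteinases (Timp1, Timp2 and Timp3) and cathepsin K (Ctsk), measured in mouse skin by RNA sequencing. They were taken by gene symbol from a deposited table of 24612 genes. All 10 were present once, and all 10 passed the filter on low values that left 23185 genes to test. The groups were celastrol (3 libraries, numbered 2, 3 and 5 in the labels), bleomycin (3 libraries, numbered 2, 3 and 4) and PBS (2 libraries, numbered 2 and 3). Every library was made from total RNA of a skin homogenate from male C57BL/6 J mice, with treatment begun at 6 weeks of age and a label of 21 days. Celastrol, a plant triterpenoid, was injected into the abdominal cavity every day (1 or 2 mg/kg). Bleomycin, a DNA-damaging drug used to bring on skin fibrosis in mice, was given under the skin (0.1 units), as was phosphate-buffered saline, PBS (0.1 mL). The labels give neither the dose of any single celastrol mouse nor any word on bleomycin in the celastrol mice, so the celastrol group is described by its label alone.

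Matrix metalloproteinases are zinc enzymes that cut collagens and other matrix proteins outside the cell, and most are made as inactive precursors. TIMPs bind the active enzymes and block them, and Timp2 also joins the membrane-bound Mmp14 to the Mmp2 precursor, which Mmp14 then activates. Cathepsin K is a cysteine protease of the lysosome that cuts triple-helical collagen. It is best known from osteoclasts and is also made by skin fibroblasts.

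Values are the deposited signals, scaled by the authors with DESeq2 size factors and not to gene length. Changes are differences in log2(value + 1) with their standard error (SE), tested with limma, and p-values were adjusted over all genes tested with a threshold of 0.05. The labels do not state that each library came from its own animal, and p-values measure the spread between these libraries only, which may be technical. Estimated depth was 14900000 to 37100000 reads in celastrol, 18500000 to 33300000 in bleomycin and 21700000 to 33600000 in PBS libraries. Celastrol 2 stood apart on the principal component with the most variance (32.7%), at a score of 237.5 against -57.3 to -3.63 for the other libraries. It listed 303 genes at 0 that had 20 or more in every other library, against 63 in Celastrol 3, 45 in Bleomycin 3, 10 in PBS 3 and 0 in the rest. Keratin and other basal epidermal markers were abundant in all 8 libraries, with summed signals of 93905 to 143217 in celastrol, 87068 to 167550 in bleomycin and 76845 to 148338 in PBS skin. Skeletal muscle markers were also present, at 190181 to 251146 in celastrol, 100923 to 153512 in bleomycin and 81247 to 95240.5 in PBS skin. Of 10 such markers, 5 were called higher in celastrol and 1 in bleomycin against PBS skin. Smooth muscle and pericyte markers summed to 19794 to 26643 in celastrol, 15875 to 21911 in bleomycin and 10516 to 11175 in PBS skin, with 2 of 7 called higher in celastrol and 0 in bleomycin against PBS skin. The part of muscle content in the results below was not tested.

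The positions are those of the deposited table on the mm10 build. Mmp12 (chr9:7344381-7369499), Mmp3 (chr9:7445822-7455975) and Mmp13 (chr9:7272514-7283331) lie near each other on chromosome 9, all on the plus strand. The others are on separate chromosomes, with Ctsk at chr3:95499256-95509362 and Timp2 on the minus strand at chr11:118301069-118355740. Upstream sequence is shown for the 3 genes that passed a test in any comparison, Mmp13, Ctsk and Timp2. It is also shown for Mmp3, which lies near Mmp13 with Mmp12 between them. Each run is the 250 bases before the RefSeq start of the gene (GRCm38.p6), read 5′ to 3′ on the gene's strand. Capitals mark matches, on either strand, to the AP-1 motif TGANTCA, to TATAAA and to the RUNX motif TGTGGTT.
Mmp13 (chr9:7272264-7272513, plus strand): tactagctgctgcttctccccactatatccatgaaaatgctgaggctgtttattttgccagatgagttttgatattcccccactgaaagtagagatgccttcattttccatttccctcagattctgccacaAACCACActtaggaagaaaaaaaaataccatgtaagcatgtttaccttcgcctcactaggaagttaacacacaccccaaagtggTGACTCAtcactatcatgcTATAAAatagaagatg
Mmp3 (chr9:7445572-7445821, plus strand): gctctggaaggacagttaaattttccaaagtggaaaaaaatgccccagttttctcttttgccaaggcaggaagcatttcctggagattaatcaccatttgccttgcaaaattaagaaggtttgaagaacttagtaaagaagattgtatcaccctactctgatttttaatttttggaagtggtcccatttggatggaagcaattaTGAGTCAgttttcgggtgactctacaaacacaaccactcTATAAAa
Ctsk (chr3:95498960-95499209, plus strand): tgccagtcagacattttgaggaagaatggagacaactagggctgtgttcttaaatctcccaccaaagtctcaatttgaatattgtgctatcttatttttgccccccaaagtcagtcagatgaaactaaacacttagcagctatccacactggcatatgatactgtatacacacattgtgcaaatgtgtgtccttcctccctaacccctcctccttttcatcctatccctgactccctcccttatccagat
Timp2 (chr11:118355412-118355661, minus strand): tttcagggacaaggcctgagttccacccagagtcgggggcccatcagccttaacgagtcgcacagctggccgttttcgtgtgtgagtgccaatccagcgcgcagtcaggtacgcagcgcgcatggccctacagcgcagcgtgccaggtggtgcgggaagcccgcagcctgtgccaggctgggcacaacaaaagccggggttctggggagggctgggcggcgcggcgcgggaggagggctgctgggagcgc
The Mmp13 and Mmp3 runs each hold an AP-1 match, whose first base is 35 bases upstream of the start in Mmp13 and 46 bases upstream in Mmp3. Each also holds a TATAAA match, and Mmp13 alone of the 4 runs holds a RUNX match, on the opposite strand. Ctsk and Timp2 hold none of these letters, and Timp2 has 1 match to the GC box GGGCGG, which is not capitalised. Over 32851 promoter windows of 300 bases (250 before and 50 after the start), 7.81% held the AP-1 motif, 13.6% TATAAA, 5.27% the RUNX motif and 35.7% the GC box. Promoter windows were found for 8 of the 10 genes. None was found for Mmp2 or Mmp9 in the promoter set used. Mmp12 has an AP-1 and a TATAAA match in the window of 1 of its 2 annotated starts. Mmp14 and Timp3 have 2 GC boxes each and Timp1 has 1. The matches are letters in a window and say nothing of binding.

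The comparison of bleomycin with PBS asked how bleomycin-injected skin differed. Cathepsin K fell and was the only one of the 10 genes to pass. Mmp2, Mmp3, Mmp14 and Timp2 were lower at an unadjusted p under 0.05 (limma) without passing, and Mmp9 and Timp3 also had lower mean values. Of the 10, 0 were called higher and 1 lower, where 0.677% of all genes tested were called, 0.453% higher and 0.224% lower. The 10 genes had a median log2 change of -0.86, against -0.000715 over all genes tested, and 6 of the 10 had bleomycin and PBS libraries that did not overlap, as did 23.6% of all genes.

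In the comparison of celastrol with PBS, Ctsk and Timp2 fell and Mmp13 rose. That is 1 called higher and 2 lower of the 10, where 1.37% of all genes tested were called, 0.824% higher and 0.543% lower. The median change of the 10 was -1.31, against -0.0657 over all genes tested, and 7 of the 10 had celastrol and PBS libraries that did not overlap, as did 26.9% of all genes. Both comparisons use the same 2 PBS libraries.

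The comparison of celastrol with bleomycin asked how skin of the celastrol group differed from bleomycin skin. None of the 10 genes passed, and neither did any other gene: limma called 0%, with 898 genes at an unadjusted p under 0.05 and a smallest adjusted p of 0.975. Only Mmp13 and Timp1 had an unadjusted p under 0.05 among the 10. The median change of the 10 was -0.09, against -0.0351 over all genes tested, and 1 gene, Mmp13, had libraries that did not overlap, as did 8.73% of all genes.

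**Figure D1:**
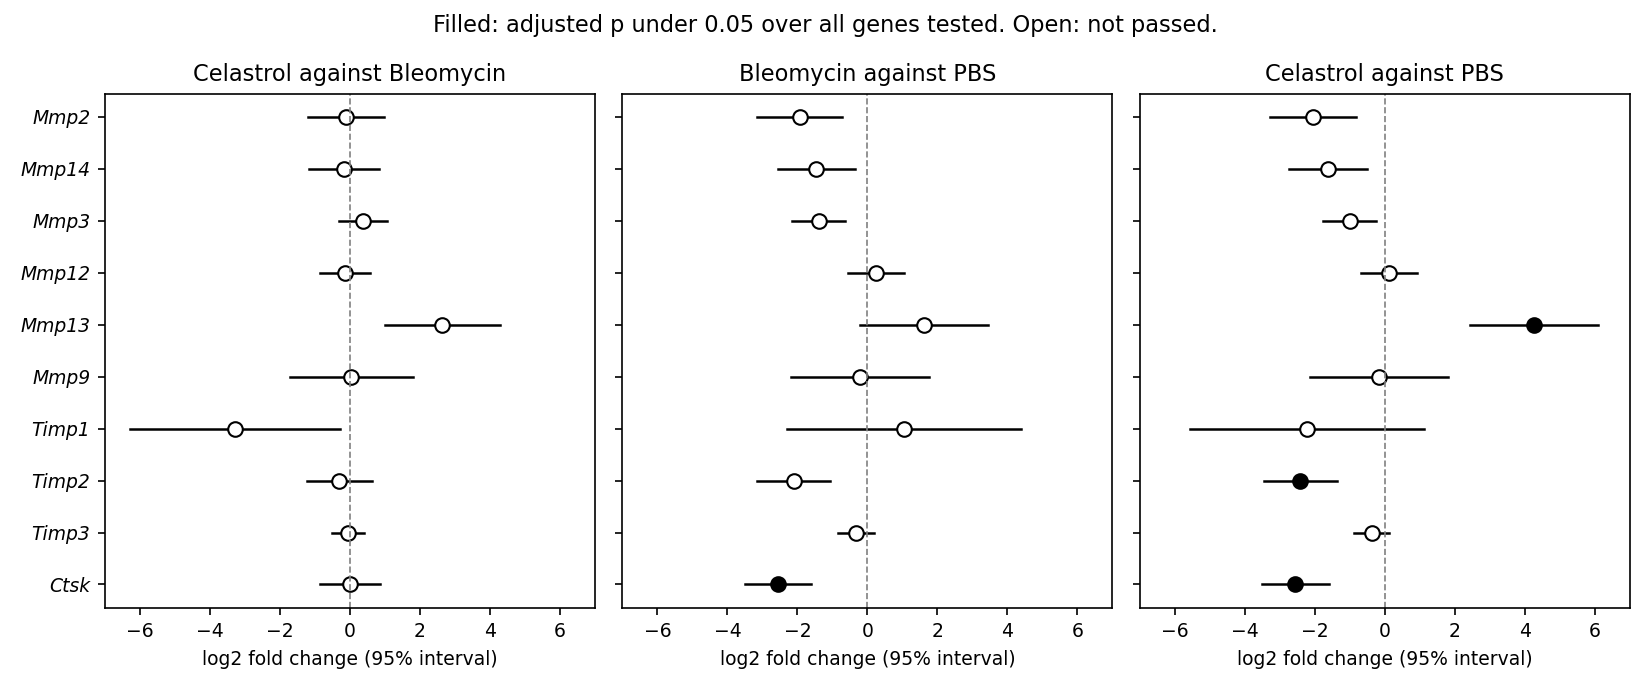
Log2 fold change of each of the 10 genes in the 3 comparisons, with 95% confidence intervals from limma and the calls marked. Ctsk lies at -2.56 in celastrol and -2.55 in bleomycin skin against PBS skin, Mmp13 at 4.27 in celastrol against PBS skin, and no gene passed in celastrol against bleomycin skin.

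Ctsk had signals of 1551, 2974 and 895 in celastrol skin, 2402, 1145 and 1512 in bleomycin skin, and 9817 and 9094 in PBS skin. Every treated library lay below both PBS libraries, and celastrol and bleomycin libraries were interleaved. Group means were 1807 ± 1063 in celastrol (SD, n = 3), 1686 ± 646 in bleomycin (SD, n = 3) and 9456 ± 511 in PBS skin (SD, n = 2). In bleomycin against PBS skin Ctsk fell by 2.55 ± 0.43 (SE) on the log2 scale, a 5.87-fold lower level (limma, adjusted p = 0.0307). In celastrol against PBS skin it fell by 2.56 ± 0.43, 5.89-fold lower (limma, adjusted p = 0.0199). Between celastrol and bleomycin skin the difference was -0.0034 ± 0.39, with a 95% interval of -0.86 to 0.85.

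The direction of Ctsk did not depend on a single library, but both calls did. Against PBS, the bleomycin change lay between -2.84 and -2.31 over the 8 fits that left out a library. The adjusted p was 0.14 without PBS 2, 0.176 without PBS 3, 0.109 without Bleomycin 3, 0.147 without Bleomycin 4 and 0.0524 without Celastrol 2, within a range of 0.00199 to 0.176 over all alternatives. The celastrol call was lost without PBS 2 (adjusted p = 0.112), PBS 3 (0.121), Celastrol 2 (0.0705) or Celastrol 5 (0.0756), within a range of 0.00704 to 0.142. Leaving out Celastrol 2 and Celastrol 3 together, a choice made after seeing the data, keeps Celastrol 5 as the only celastrol library, here and below. Celastrol 5 had the lowest Ctsk signal of all 8 libraries, and Ctsk then lay at -3.40 in celastrol against PBS skin. That value has no spread within celastrol skin behind it. Without Bleomycin 3 as well, Ctsk passed in neither group, at -2.31 in bleomycin and -3.40 in celastrol skin.

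**Figure D2:**
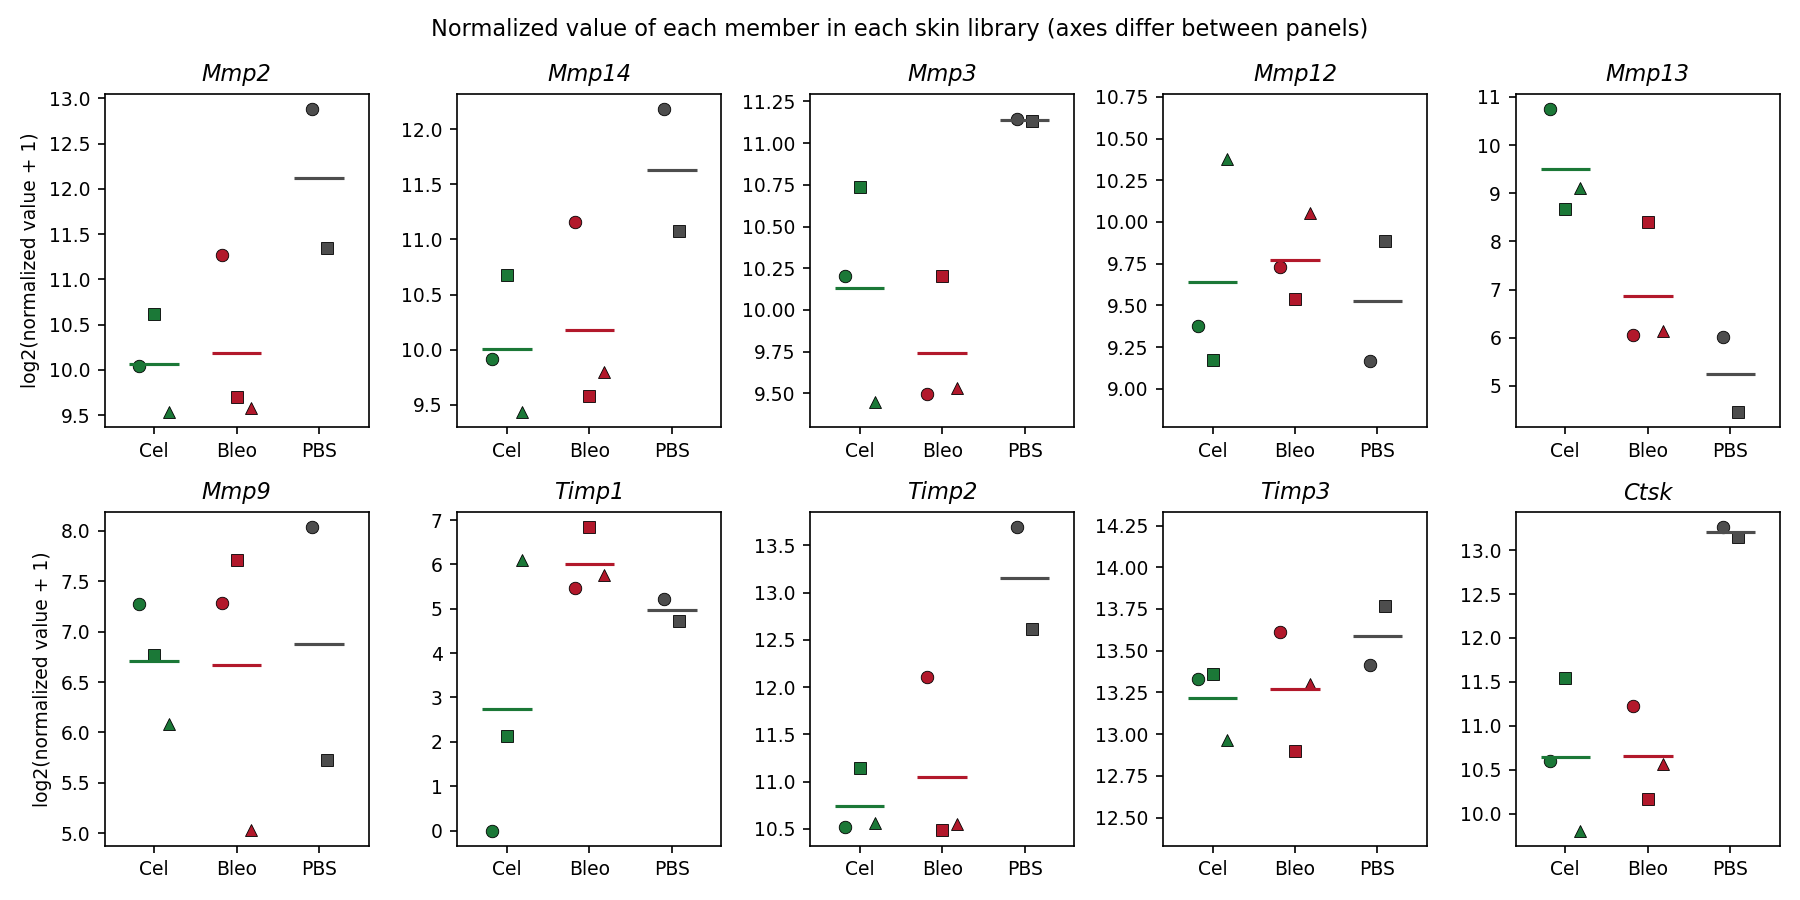
Deposited signal of each of the 10 genes in every library on a log axis, for celastrol, bleomycin and PBS skin. Symbols mark the libraries of a group in the order of their label numbers, and bars the mean of the log2 values. Ctsk lies below both PBS libraries in all 6 treated libraries, and Mmp13 lies above both PBS libraries in all 6.

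Timp2, the inhibitor that also takes part in Mmp2 activation, had signals of 1469, 2261 and 1508 in celastrol skin, 4415, 1429 and 1499.8 in bleomycin skin, and 13236 and 6274 in PBS skin. No treated library reached the lower PBS library, and Bleomycin 2 was the highest of the treated. In celastrol against PBS skin Timp2 fell by 2.41 ± 0.47 on the log2 scale, 5.32-fold lower (limma, adjusted p = 0.0367). In bleomycin against PBS skin the difference was -2.11 ± 0.47 (limma, adjusted p = 0.0900), and without Bleomycin 2 it was -2.64 and passed (adjusted p = 0.00637). The celastrol call was lost without PBS 2 (-1.87, adjusted p = 0.233), PBS 3 (0.0733), Bleomycin 4 (0.0514), Celastrol 2 (0.114) or Celastrol 5 (0.139), and with Celastrol 2 and Celastrol 3 both left out (0.227). Its adjusted p ranged from 0.0041 to 0.257 over the alternatives. Celastrol and bleomycin skin differed by -0.31 ± 0.42, with an interval of -1.23 to 0.62. A gene on the same strand, Cep295nl, lies within Timp2 and had signals of 89.7 to 214 in celastrol, 152 to 187 in bleomycin and 299 to 396 in PBS skin, so reads of the overlap may be split between both genes.

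Mmp2, the gelatinase that Mmp14 activates, had signals of 1054, 1569 and 741 in celastrol skin, 2471, 833 and 764 in bleomycin skin, and 7575 and 2606 in PBS skin. Bleomycin 2 came within reach of PBS 3, and the PBS libraries themselves were far apart. The differences from PBS were -2.05 ± 0.55 in celastrol (limma, adjusted p = 0.129) and -1.93 ± 0.55 in bleomycin skin (limma, adjusted p = 0.227). Without Bleomycin 2 both passed, at -2.05 (adjusted p = 0.0337) in celastrol and -2.48 (adjusted p = 0.0332) in bleomycin skin. The adjusted p of the bleomycin difference ranged from 0.0204 to 0.925 over the alternatives. Celastrol and bleomycin skin differed by -0.12 ± 0.49, with an interval of -1.21 to 0.97.

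Mmp14, the membrane-bound protease, had signals of 968, 1634 and 692 in celastrol skin, 2282, 763 and 888 in bleomycin skin, and 4656 and 2163 in PBS skin. Celastrol libraries lay below both PBS libraries, and Bleomycin 2 lay just above PBS 3. Neither difference from PBS passed, at -1.62 ± 0.50 in celastrol (limma, adjusted p = 0.196) and -1.46 ± 0.50 in bleomycin skin (limma, adjusted p = 0.427). Celastrol and bleomycin skin differed by -0.17 ± 0.45, with an interval of -1.16 to 0.83.

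Mmp2, Mmp14 and Timp2 had like profiles over the 8 libraries, with each profile of log2 values centred on its own mean. Among 13387 genes with a mean signal of at least 50, Timp2 (root mean square difference 0.242 on the log2 scale) and Mmp14 (0.251) were the nearest to Mmp2, followed by Cilp (0.284). Timp2 was nearest to Igfbp6 (0.231), Mmp2 (0.242) and Fbln1 (0.280), and Mmp14 to Scara3 (0.225), Podn (0.242) and Gnao1 (0.249). In all 3 genes Bleomycin 2 was the highest treated library and PBS 2 the highest of all. Ctsk did not share that split of the PBS libraries, and its nearest genes were Pcolce2 (0.179), Adgrd1 (0.249) and Ces4a (0.264).

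Mmp13, the main collagenase of rodents, had signals of 1727, 405 and 552 in celastrol skin, 65.4, 336 and 69.8 in bleomycin skin, and 64.0 and 21.0 in PBS skin. All celastrol libraries lay above all others, and Celastrol 2 was several times above the other 2 of its group. Bleomycin 3 stood above PBS skin, and the other 2 bleomycin libraries lay just above PBS 2. Group means were 895 ± 724 in celastrol (SD, n = 3), 157 ± 155 in bleomycin (SD, n = 3) and 42.5 ± 30.4 in PBS skin (SD, n = 2).

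Mmp13 rose in celastrol against PBS skin by 4.27 ± 0.83 on the log2 scale, 19.3-fold (limma, adjusted p = 0.0367). In celastrol against bleomycin skin the difference was 2.65 ± 0.74, 6.26-fold, with an interval of 1.01 to 4.28 and an unadjusted p of 0.00463, and it did not pass (limma, adjusted p = 0.975). In bleomycin against PBS skin it was 1.63 ± 0.83 (limma, adjusted p = 0.862). The call against PBS was lost without PBS 2 (5.05, adjusted p = 0.0699), PBS 3 (3.49, adjusted p = 0.259), Bleomycin 4 (0.055), Celastrol 2 (3.65, adjusted p = 0.1) or Celastrol 5 (4.47, adjusted p = 0.114). With Celastrol 2 and Celastrol 3 both left out, and Celastrol 5 as the only celastrol library, it was 3.87. The nearest genes in profile, Serpina9 (0.848), Tcf23 (0.948) and Gsdmc2 (0.959), were much less close than those of the genes above.

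The gene of Mmp3, stromelysin, lies near that of Mmp13, with Mmp12 between them. Signals of Mmp3 were 1177, 1708 and 699 in celastrol skin, 722, 1179 and 739 in bleomycin skin, and 2263 and 2244 in PBS skin. All treated libraries lay below both PBS libraries, which were nearly equal, and the celastrol and bleomycin libraries overlapped. The differences were -1.01 ± 0.35 in celastrol against PBS (limma, adjusted p = 0.254), -1.39 ± 0.35 in bleomycin against PBS (adjusted p = 0.136) and 0.39 ± 0.31 in celastrol against bleomycin skin (interval -0.30 to 1.07). Its nearest genes were Elovl6 (0.182), Has2 (0.224) and Dpp4 (0.225). In celastrol against PBS skin Mmp3 was lower without passing, and Mmp13 was called higher. Mmp12, which lies between Mmp3 and Mmp13, overlapped PBS in celastrol skin (0.12 ± 0.36). The part of position or of the AP-1 matches in these values was not tested.

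Mmp12, macrophage elastase, had signals of 664, 577 and 1328 in celastrol skin, 848, 744 and 1061 in bleomycin skin, and 573 and 946 in PBS skin. The 3 groups overlapped, with differences of 0.12 ± 0.36 in celastrol against PBS, 0.25 ± 0.36 in bleomycin against PBS and -0.13 ± 0.32 in celastrol against bleomycin skin. Its end overlaps the minus-strand gene Mmp1b, which had 9.25 to 41.0 in celastrol, 0 to 15.7 in bleomycin and 0 to 2.09 in PBS skin.

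Mmp9, a gelatinase of neutrophils and other inflammatory cells, had signals of 154, 108 and 66.9 in celastrol skin, 155, 208 and 31.6 in bleomycin skin, and 261 and 51.9 in PBS skin. The spread within bleomycin and within PBS skin was wider than any difference between group means, at 110 ± 43.7 in celastrol (SD, n = 3), 131 ± 90.4 in bleomycin (SD, n = 3) and 157 ± 148 in PBS skin (SD, n = 2). The intervals were wide, at -2.13 to 1.79 in celastrol against PBS, -2.17 to 1.76 in bleomycin against PBS and -1.72 to 1.80 in celastrol against bleomycin skin. These intervals hold changes of several-fold in either direction, which were not detectable here.

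Timp3, the inhibitor that binds to the matrix, had signals of 10281, 10493 and 7989 in celastrol skin, 12526, 7626 and 10086.5 in bleomycin skin, and 10928 and 13924 in PBS skin. Its changes had the smallest SE of the 10 genes, and its groups lay close together. Celastrol libraries were all below PBS libraries by a small margin, at -0.37 ± 0.23 (interval -0.88 to 0.13, limma adjusted p = 0.572). Bleomycin and PBS skin differed by -0.32 ± 0.23, and celastrol and bleomycin skin by -0.05 ± 0.20 (interval -0.50 to 0.40). Timp3 lies within the minus-strand gene Syn3, whose signal was 44.4 to 128 over the 8 libraries.

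Timp1, the inhibitor that is usually induced in injured skin, was listed at 0 in Celastrol 2 and had 3.37 and 67.6 in the other celastrol libraries, against 43.4, 114 and 52.9 in bleomycin skin and 36.2 and 25.4 in PBS skin. These correspond to about 0, 2 and 95 reads in celastrol, 63, 87 and 72 in bleomycin, and 52 and 23 in PBS libraries. Bleomycin libraries all lay above PBS libraries, and the celastrol libraries ran from the lowest to the second highest of all. The difference was -3.28 ± 1.35 in celastrol against bleomycin skin, with an interval of -6.27 to -0.29 and an unadjusted p of 0.0346 (limma, adjusted p = 0.975). Celastrol 2 and Celastrol 3 are the libraries with the most genes at 0. With both left out, and Celastrol 5 as the only celastrol library, the same difference was 0.08. It was 1.05 ± 1.51 in bleomycin against PBS and -2.23 ± 1.51 in celastrol against PBS skin, and neither passed. A count of 0 in Celastrol 2 allows a signal of up to 4.92 (3 reads, counting error only). Timp1 lies within the minus-strand gene Syn1, and its nearest genes, Tefm (0.616), Zfp97 (0.649) and Mir670hg (0.746), were all low in Celastrol 2 and Celastrol 3.

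Levels of different genes were compared per kilobase of exon, counting all annotated exons of a gene, so the order depends on the transcripts annotated. In PBS skin Ctsk was the most abundant (6254 ± 338 per kb, SD, n = 2), above Timp2 (2504 ± 1264) with no overlap, and Timp2, Timp3 (1526 ± 260), Mmp2 (1510.1 ± 1042) and Mmp3 (1251 ± 7.26) overlapped in turn. Mmp14 (572 ± 296) followed, then Mmp12 (105 ± 36.5), Mmp9 (44.3 ± 41.9) and Timp1 (34.7 ± 8.59), and Mmp13 was last (15.9 ± 11.4). In celastrol skin Ctsk (1195 ± 703, n = 3) and Timp3 (1177 ± 171) overlapped at the top. Mmp3 (663 ± 280), Timp2 (448 ± 114), Mmp13 (335 ± 271), Mmp2 (333 ± 124), Mmp14 (184 ± 81.3) and Mmp12 (118 ± 56.8) then overlapped in turn, which put Mmp13 at rank 5 of the 10. Without Celastrol 2, a choice made after seeing the data, its mean was 179 per kb, at rank 7, below Mmp14 (195). Mmp9 (31.0 ± 12.4) and Timp1 were the lowest. In bleomycin skin each gene overlapped the next, from Timp3 (1238 ± 301, n = 3) and Ctsk (1115 ± 427) down to Mmp13 (58.8 ± 58.0) and Mmp9 (37.1 ± 25.6).

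Shares of each enzyme in the metalloproteinase signal per kilobase are given as a description, with no test. Mmp13 made up 33.8%, 7.77% and 18.2% of the summed signal of the 6 enzymes in celastrol skin, 1.44%, 9.55% and 2.699% in bleomycin skin, and 0.536% and 0.309% in PBS skin. Celastrol 3 lay below Bleomycin 3 in this share, so those groups overlapped, and both lay above PBS. Mmp2 made up 16.4%, 23.9% and 19.4% in celastrol, 43.1%, 18.8% and 23.4% in bleomycin, and 50.4% and 30.5% in PBS skin. Mmp2 shares did not overlap between celastrol and PBS skin, and bleomycin overlapped both. Mmp3 made up 34.2% to 48.6% in celastrol, 23.5% to 49.7% in bleomycin and 28.2% to 49.2% in PBS skin. Mmp14 made up 8.51% to 14.1% in celastrol, 9.72% to 22.5% in bleomycin and 14.3% to 17.5% in PBS skin, and Mmp12 4.09% to 16.2% in celastrol, 6.88% to 15.2% in bleomycin and 1.77% to 5.16% in PBS skin. Mmp9 made up 1.56% to 2.28% in celastrol, 0.923% to 4.46% in bleomycin and 0.578% to 1.66% in PBS skin. The summed signal of the 6 enzymes was 1133 to 1949 per kb in celastrol, 968 to 1702 in bleomycin and 2535 to 4462 in PBS skin. The ratio of the summed TIMPs to the summed enzymes was 0.858 to 1.28 in celastrol, 1.09 to 1.74 in bleomycin and 1.07 to 1.32 in PBS skin, and these ranges overlapped. Timp3 was 67.9% to 77.0% of the TIMP sum in celastrol, 56.5% to 73.6% in bleomycin and 28.1% to 51.1% in PBS skin. A share also moves when another gene of its sum moves. Mean Timp3 per kb was 1177 in celastrol, 1238 in bleomycin and 1526 in PBS skin, and mean Mmp12 per kb was 118, 122 and 105.

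**Figure D3:**
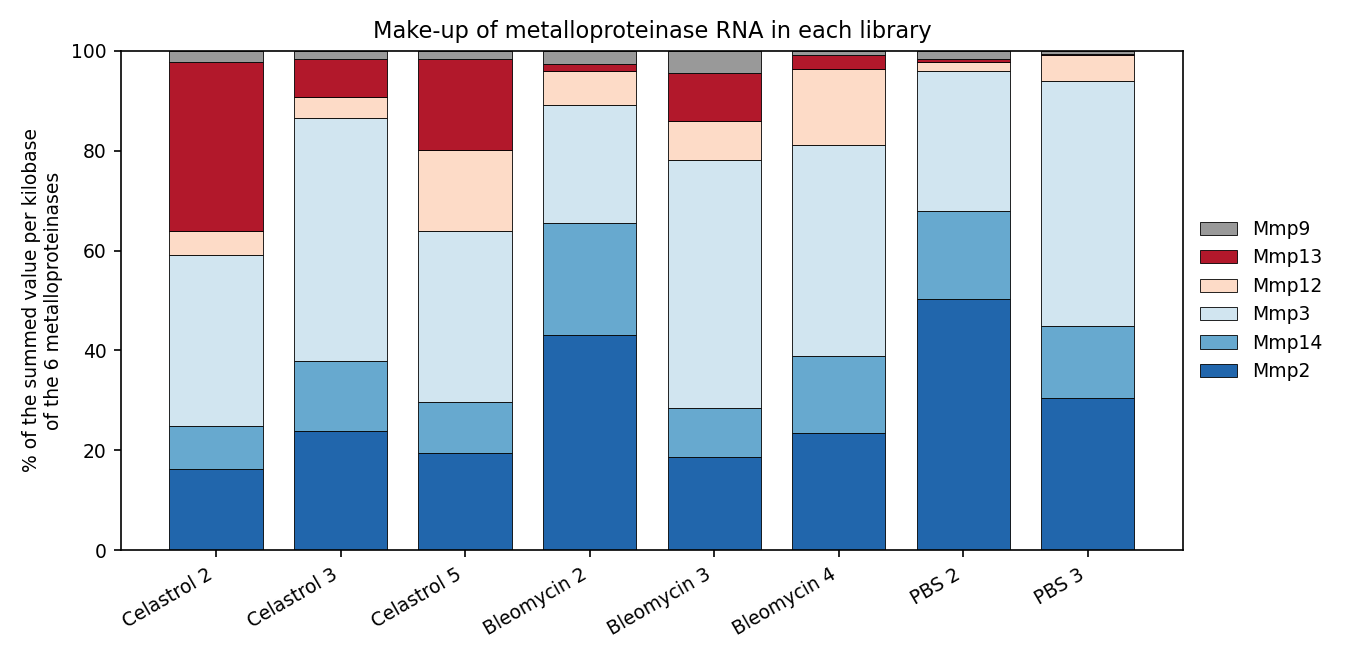
Share of each of the 6 metalloproteinases in their summed signal per kilobase of exon, 1 bar per library. Mmp13 takes 7.77% to 33.8% in celastrol, 1.44% to 9.55% in bleomycin and 0.309% to 0.536% in PBS libraries.

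Fibroblasts are the cells that make most of the skin's collagen, and the sum of their markers was lower against PBS in the same libraries as Ctsk. The summed signal of 10 fibroblast markers was 14443, 20342 and 10743 in celastrol skin, 17679, 12032 and 11552 in bleomycin skin, and 44007 and 43385 in PBS skin. Of the 10 markers, 4 were called lower and 0 higher against PBS in each treated group, with a median change of -1.39 in celastrol and -1.54 in bleomycin skin, and 0 were called between celastrol and bleomycin skin. None was at 0 in any library. Thy1 in PBS 3 (579) lay below every treated library (607 to 1034). Twist2 in Celastrol 3 (209), and Pdgfrb (855) and Fbln1 (481) in Bleomycin 2, exceeded PBS 3 (170, 717 and 355). The remaining markers lay below both PBS libraries in every treated library. In bulk skin, fewer cells of a type and less RNA per cell cannot be told apart, and the part of fibroblast content in the lower Ctsk, Timp2, Mmp2 and Mmp14 signals was not tested.

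Set against the fibroblast marker sum, Ctsk was 10.7%, 14.6% and 8.33% of it in celastrol, 13.6%, 9.52% and 13.1% in bleomycin, and 22.3% and 21.0% in PBS skin. Against each of the 10 markers singly, all celastrol ratios of Ctsk lay below both PBS ratios for 9 markers (not for Fbln1), and all bleomycin ratios for 8 (not for Lum or Fbln1). The same count was 5 in celastrol and 3 in bleomycin skin for Timp2, and 2 in celastrol and 1 in bleomycin skin for each of Mmp2 and Mmp14. The markers were measured in the same libraries, so these counts are not independent of each other. The share of all genes with such counts was not computed. Whether Ctsk fell beyond the fibroblast markers was not tested. Mmp14 was 6.70%, 8.03% and 6.44% in celastrol, 12.9%, 6.34% and 7.69% in bleomycin, and 10.6% and 4.98% in PBS skin, with overlap. Timp2 was 10.2%, 11.1% and 14.0% in celastrol, 25.0%, 11.9% and 13.0% in bleomycin, and 30.1% and 14.5% in PBS skin, and Mmp2 was 7.30%, 7.71% and 6.89% in celastrol, 14.0%, 6.92% and 6.61% in bleomycin, and 17.2% and 6.01% in PBS skin. On this measure the celastrol Timp2 values stayed below PBS by a small margin in Celastrol 5, and Mmp2 overlapped.

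**Figure D4:**
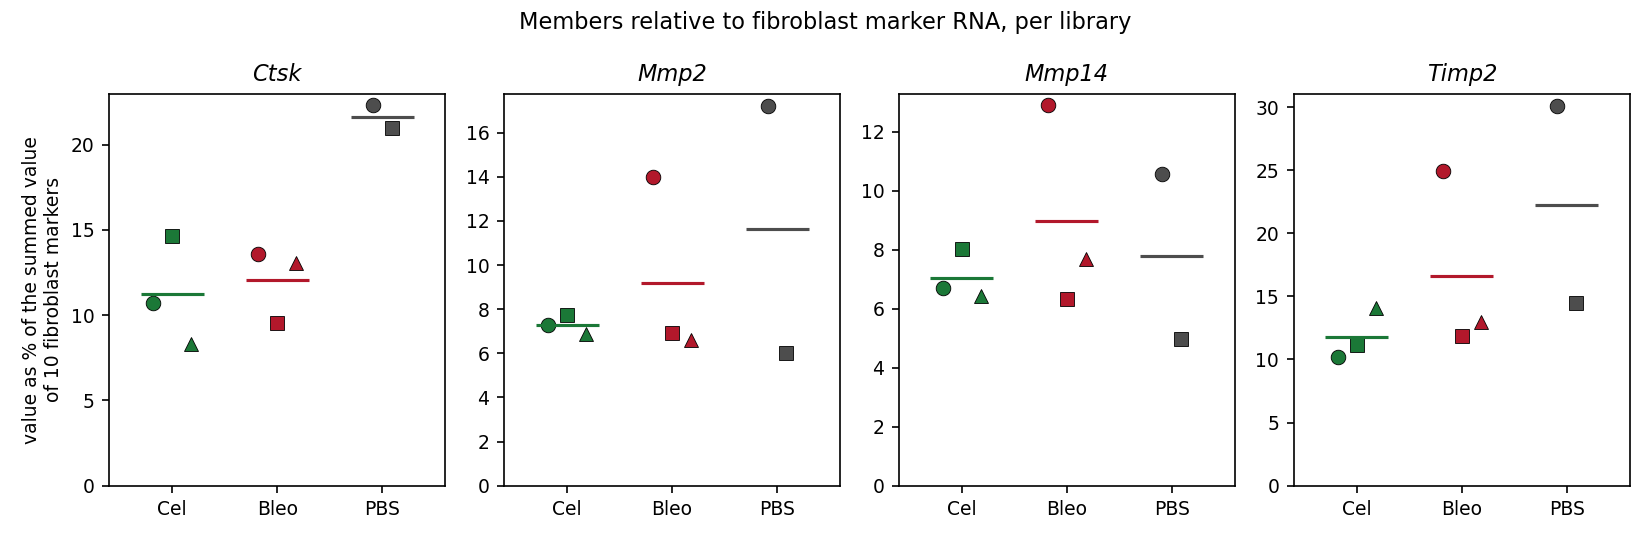
Signal of Ctsk, Timp2, Mmp2 and Mmp14 as a percentage of the summed signal of 10 fibroblast markers, with a symbol per library (circle, square and triangle in the order of the label numbers) and a bar at the group mean. Ctsk is 8.33% to 14.6% in celastrol, 9.52% to 13.6% in bleomycin and 21.0% to 22.3% in PBS libraries, while Mmp2 and Mmp14 overlap between groups.

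Markers of cells that make Mmp12, Mmp9, Mmp13 and Ctsk elsewhere gave these values. Macrophage marker sums were 13006 to 18487 in celastrol, 15435 to 20844 in bleomycin and 12926 to 16374 in PBS skin, with 2 of 10 markers called higher against PBS in each treated group and Chil3 at 0 in PBS 3. Neutrophil marker sums over 6 of 10 markers measured were 2145 to 3089 in celastrol, 1523 to 6173 in bleomycin and 1033 to 1494 in PBS skin, with 2 called higher in celastrol and 1 in bleomycin skin. Both sums are weighted to abundant markers, with Mrc1 at 6626 to 13000 over all libraries and Cxcr2 at 829 and 1283 in PBS skin. S100a8 and S100a9 were at 0 to 5.56 in PBS and 28.9 to 2416 in treated libraries. The other neutrophil markers overlapped between celastrol and PBS skin. Osteoclast marker sums over 5 of 7 were 940 to 1441 in celastrol, 1176 to 1882 in bleomycin and 1004 to 2089 in PBS skin, with 0 called. Sums of 6 wound-epidermis genes (Krt6a, Krt6b, Krt16, Krt17, Lcn2 and Epgn) were 96782, 70729 and 51024 in celastrol, 18440 (Bleomycin 2), 150388 (Bleomycin 3) and 26785 (Bleomycin 4) in bleomycin, and 9368 and 2253 in PBS skin, with 3 of 6 called higher in celastrol and 2 in bleomycin skin. Within celastrol and within bleomycin skin the library with the highest wound-epidermis sum was also the one with the highest Mmp13. The keratins Krt6a, Krt6b, Krt16 and Krt17 were highest in those same libraries, and the other genes of the list were not. Lcn2 was highest in Celastrol 5 (1371) and Bleomycin 4 (880), and Epgn in Celastrol 3 (386) and Bleomycin 4 (610). Across groups the order was not the same: Bleomycin 3 had the highest sum of all and less Mmp13 than any celastrol library, and Celastrol 3 had a higher sum and less Mmp13 than Celastrol 5. The part of epidermal injury in the Mmp13 signal was not tested.

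Among the other proteases, lists chosen with earlier results known gave few calls. Of 13 other metalloproteinases tested, 0 passed in any comparison. The smallest p belonged to the neutrophil collagenase Mmp8 in celastrol against PBS skin (3.61 ± 0.81, limma adjusted p = 0.0651), to Mmp27 in bleomycin against PBS skin (-1.72 ± 0.44, adjusted p = 0.148) and to Mmp15 in celastrol against bleomycin skin (-2.66 ± 1.07, adjusted p = 0.975). Of 12 other cathepsins, 1 passed. Cathepsin S, Ctss, a protease of antigen-presenting cells, had 5927, 9294 and 12537 in celastrol, 6872, 10689 and 10708 in bleomycin, and 2875 and 2686 in PBS skin. It rose against PBS by 1.67 ± 0.30 in celastrol (limma, adjusted p = 0.0254) and by 1.73 ± 0.30 in bleomycin skin (adjusted p = 0.0310), the opposite direction to Ctsk in both. In celastrol against bleomycin skin the smallest p among the cathepsins was that of Ctsh (0.29 ± 0.16, adjusted p = 0.975).

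Of 25 ADAM and ADAMTS genes, 3 were called lower in celastrol and 1 in bleomycin skin against PBS. In celastrol skin these were the procollagen N-proteinase Adamts2 (-2.81 ± 0.47, limma adjusted p = 0.0196), Adamts10 (-1.42 ± 0.24, 0.0208) and Adamts12 (-1.05 ± 0.20, 0.0363). In bleomycin skin it was Adamts12 (-1.13 ± 0.20, limma adjusted p = 0.0351). Adamts2 (-2.29 ± 0.47, 0.0646) and Adamts10 (-0.90 ± 0.24, 0.182) were also lower in bleomycin skin without passing. Adamts3 had the smallest p of this list in celastrol against bleomycin skin (-3.70 ± 1.31, adjusted p = 0.975) and was listed at 0 in Celastrol 2 and Celastrol 3.

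Of 5 other inhibitors, 8 genes of the plasmin and proprotein convertase systems, 4 genes of collagen uptake and turnover and 11 inducers, 0 passed in any comparison. In bleomycin against PBS skin the smallest p among the inhibitors, the uptake genes and the inducers was that of Cst6 (0.74 ± 0.26, limma adjusted p = 0.43), Dpp4 (-1.41 ± 0.38, 0.179) and the AP-1 subunit Fos (2.86 ± 0.61, 0.0746). In celastrol against PBS skin the smallest p of the 4 lists was that of Cstb (1.02 ± 0.31, limma adjusted p = 0.191), the tissue plasminogen activator Plat (-1.07 ± 0.36, 0.244), Dpp4 (-1.19 ± 0.38, 0.207) and Fos (1.37 ± 0.61, 0.403). In celastrol against bleomycin skin Cstb (0.54), the convertase Furin (-0.63), the uptake receptor Lrp1 (-0.66) and Fos (-1.49) had an adjusted p of 0.975 each. Fos signals were 620.4, 1059 and 217 in celastrol, 2804, 1180.3 and 956 in bleomycin, and 237 and 171 in PBS skin.

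Of 5 substrate genes, Col1a1, Col1a2 and Col3a1 fell in celastrol against PBS skin, with changes of -5.48 ± 1.06 (limma, adjusted p = 0.0367), -4.78 ± 0.76 (0.0167) and -3.65 ± 0.58 (0.0167). Col1a2 and Col3a1 fell in bleomycin against PBS skin, with changes of -4.46 ± 0.76 (limma, adjusted p = 0.0310) and -3.59 ± 0.58 (0.0274). Col1a1 was also lower there, at -4.91 ± 1.06, without passing (limma, adjusted p = 0.0790). Its signals were 18991, 1482 and 1238 in bleomycin and 200815 and 48044 in PBS skin. In Col1a1, Col1a2 and Col3a1 Bleomycin 2 was the highest treated library and PBS 2 the highest of all, as in Mmp2, Mmp14 and Timp2. Fn1 had the smallest p of this list in celastrol against bleomycin skin, at -0.47 ± 0.40 (adjusted p = 0.975). Every call in the lists of cathepsins, ADAM and ADAMTS genes and substrates was lost when either PBS library was left out, with adjusted p of 0.0868 to 0.223 without PBS 2 and of 0.0568 to 0.374 without PBS 3. The bleomycin calls among them were also lost without Bleomycin 3 or Bleomycin 4 (adjusted p of 0.103 to 0.193), and the celastrol calls without Celastrol 5 (0.0802 to 0.141). Without Celastrol 2 the celastrol calls other than Ctss were lost (0.0574 to 0.115), and without Celastrol 3 that of Ctss (0.0611). Adamts12 was also lost in celastrol skin without Bleomycin 3 (0.0508) or Bleomycin 4 (0.072), and in bleomycin skin without Celastrol 2 (0.0508) or Celastrol 5 (0.0729). In bleomycin skin Col1a2 was lost without Celastrol 2 (0.0522) or Celastrol 5 (0.071), and Col3a1 without Celastrol 5 (0.0661). Leaving out 1 library brought in Dpp4 (without Celastrol 5, 0.0322) and Fos (without Celastrol 5, 0.0465) in bleomycin against PBS skin, and Mmp8 (without Celastrol 2, 4.10, adjusted p = 0.0465) in celastrol against PBS skin.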

How the data were processed

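Total RNA of 8 mouse skin homogenates was extracted with TriZol and made into libraries with a VAHTS total RNA kit, per the labels' protocols. Tools listed by the submitters' processing notes, without roles, are STAR 2.7.3a, Partek 10.0.22 and DESeq2, with the build mm10. The unit is a signal: the authors scaled gene counts with DESeq2 size factors in the poscounts form, per the file headers. Counting rules, annotation and use of strand are not given in the sources used here. Low values were whole reads, to within 0.03 reads, for only 58.9% to 67.5% of genes per library, so no count test was run, and depth was estimated from the value of 1 read. Library sums were 22900000 to 26400000.

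The test covered 23185 genes that reached a signal of 10 in 2 or more libraries (1427 did not), and ran on log2(value + 1) with limma 3.58.1 in R 4.3.3 (eBayes with trend, all 8 libraries in 1 fit, two-sided, Benjamini-Hochberg over all genes tested). The procedure was run on simulated data with large changes, independent noise and no outlying library. That run cannot show how it performs on these libraries. Exon lengths are from GENCODE, as the union of all annotated exons of a gene, and promoter sequences are from RefSeq (GRCm38.p6). The members, lists and tests were chosen with earlier results of these data known. Named genes were all 10 members, genes past the threshold in the lists of proteases, inhibitors, activators, uptake genes, inducers and substrates, the gene with the smallest p per such list and comparison, and the 3 nearest profiles of a member. Of these, 1 gene is not reported here. Cell type markers are given as sums and counts. Alternatives were another pseudocount (10), no filter, quantile normalization, only the 2 groups compared, library weights, a replicate block and leaving out libraries. Intervals cover 95%.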

Additional observations from a re-analysis of the deposited data

How the results depend on the processing

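Each result was recomputed under 16 alternatives. Of the values for the 10 genes, 403 kept direction and side of the threshold, 29 lost a call, 7 gained one and 41 turned direction, none of the last past the threshold in either fit. In bleomycin against PBS skin, library weights (which gave Bleomycin 4 a weight of 6.36) called 711 genes and 5 members: Ctsk, Mmp2 (-2.36), Mmp3 (-1.55), Mmp14 (-1.72) and Timp2 (-2.45). Only the 2 groups compared gave 55 higher and 58 lower, against 105 and 52. Leaving out 1 library gave 16 to 229 genes and 0 to 3 members in bleomycin against PBS, 0 to 1 genes in celastrol against bleomycin, and 38 to 418 genes and 0 to 4 members in celastrol against PBS skin. The bleomycin against PBS count was 70 without PBS 2, 18 without PBS 3, 33 without Bleomycin 3, 16 without Bleomycin 4 and 103 without Celastrol 5. The celastrol against PBS count was 104 without PBS 2, 38 without PBS 3, 158 without Bleomycin 4, 143 without Celastrol 2 and 39 without Celastrol 5, against 157 and 317 genes with all libraries. Leaving out Celastrol 2 and Celastrol 3 together gave 1 gene in celastrol against bleomycin, and 84 genes and 1 member in celastrol against PBS skin. Without Bleomycin 3 as well, 0 genes and 0 members passed in bleomycin against PBS skin (1636 at an unadjusted p under 0.05), and 4 genes and 0 members in celastrol against PBS skin. The causes were not tested.

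The numbers 2 and 3 are shared by group labels that do not say they pair mice, so the numbers were not taken as pairs. Deviations of same-numbered libraries correlated at -0.00485 to 0.203, and those of differently numbered libraries at -0.203 to 0.123. With 2 or 3 libraries per group, these values cannot decide whether mice were paired. The replicate block called 17 genes and 0 members in bleomycin against PBS (Ctsk -2.51) and 41 genes and 0 members in celastrol against PBS skin (Mmp13 4.47, Timp2 -2.32, Ctsk -2.14). Under the block, values turned for Mmp9 (0.62 in bleomycin against PBS, -0.47 in celastrol against bleomycin, 0.14 in celastrol against PBS), Mmp12 (-0.25 in celastrol against PBS), Timp3 (0.088) and Ctsk (0.37, both in celastrol against bleomycin).

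In celastrol against bleomycin skin, Mmp9 turned to -0.0014 with a pseudocount of 10, and Mmp2 to 0.20, Timp2 to 0.029 and Fn1 to 0.16 with library weights. Without Celastrol 2 and Celastrol 3, Mmp3 was -0.29, Mmp9 -0.59, Mmp12 0.60 and Timp1 0.078 there, and Timp1 1.13 against PBS. Without Bleomycin 3 as well, they were -0.064, -0.071, 0.49 and 0.49, and 1.13. Over fits leaving out 1 library, ranges that crossed 0 were, in celastrol against bleomycin, Mmp2 -0.42 to 0.42, Mmp9 -0.79 to 0.55, Mmp12 -0.50 to 0.10, Mmp14 -0.50 to 0.32, Timp2 -0.59 to 0.23, Timp3 -0.24 to 0.12 and Ctsk -0.45 to 0.42. In celastrol against PBS they were Mmp9 -1.33 to 0.99 and Mmp12 -0.25 to 0.48, and in bleomycin against PBS Mmp9 -1.36 to 0.95 and Mmp12 -0.11 to 0.61. Depth limits Timp1 most, at 0 to 95 estimated reads.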
